A study of Mus musculus with 6 samples.

Results

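Wnt proteins are secreted signals that keratinocytes make and receive. The Wnt ligands described here are 10 of the 19 members of the mouse family: Wnt3, Wnt3a, Wnt4, Wnt5a, Wnt6, Wnt7a, Wnt7b, Wnt10a, Wnt10b and Wnt16. They were found by gene symbol in a table of 19618 genes, and all 10 had a row. The list was selected on values of these same libraries, the level of each ligand and its difference between the genotypes, so such differences are given as a description and carry no test.

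Keratinocytes were isolated from tail skin of mice aged 4 months, and polyadenylated RNA was sequenced in 6 libraries. The mice of the 3 knockout samples carried K14cre and were homozygous for a floxed Gpr161 allele. K14cre expresses Cre recombinase from the keratin 14 promoter, which is active in basal keratinocytes of the epidermis and follicle, so Gpr161 in other cells of the skin is not its target. The 3 control samples are labelled without K14cre. Control_1 had the floxed allele on both chromosomes and the other controls were heterozygous for it, so no control is labelled as carrying the transgene alone. Gpr161 is a ciliary receptor known as a brake on Hedgehog signalling. The column names give a genotype and a tag but no title, so libraries are called by tag. The knockout tags are DE679, DE685 and DE688, the control tags DE680, DE684 and DE689, and where 3 values of a genotype follow each other they stand in this order. Which control library is the homozygous one is not given in the sources used here.

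Wnt ligands carry a lipid that Porcn attaches in the endoplasmic reticulum and that Wls needs to bring them to the cell surface. Outside the cell, they bind a Frizzled receptor together with Lrp5 or Lrp6, which protects beta-catenin from destruction and lets it switch on targets such as Axin2; some ligands, Wnt5a among them, act mainly through Ror and Ryk receptors and without beta-catenin. In skin, Wnt signals are known for the formation and regrowth of hair follicles and for the upkeep of basal keratinocytes.

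The coding stretch around the serine that receives this lipid shows how the ligands are related, and it is shown for the 3 most abundant ligands here and for Wnt7a, the closest relative of Wnt7b. Each line gives 30 bases of the coding strand, 5′ to 3′, from GENCODE M21 transcripts (GRCm38), and the capitals mark the codon of that serine.
Wnt4: aagtgtcacggggtgTCGggctcctgcgag
Wnt7b: aagtgtcacggtgtgTCAggctcctgtacc
Wnt7a: aagtgccatggtgtgTCAggctcctgtacc
Wnt10a: aaatgccacggcaccTCAggcagctgccag

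These stretches lie inside 1 coding exon each, at chr4:137296342-137296371 on the plus strand for Wnt4, chr15:85537809-85537838 on the minus strand for Wnt7b, chr6:91366269-91366298 on the minus strand for Wnt7a and chr1:74803153-74803182 on the plus strand for Wnt10a. Wnt7a matched Wnt7b at 28 of the 30 bases, Wnt4 matched it at 24 and Wnt10a at 18. Even so, 0 of the 50-base words in the transcripts of any listed ligand occurred in a transcript of another Wnt gene, so reads of that length tell the ligands apart. Wnt7b (chr15:85535437-85582473, minus strand) shares 324 exon bases, 6.61% of its exons, with the antisense gene AU022754. The library kit keeps the strand, but whether counting used it is not given in the sources used here, so reads from these bases cannot be told apart. AU022754 had 1.49 to 2.71 CPM in the 6 libraries, far below Wnt7b. CPM is the count scaled to library size, with factors from TMM, the trimmed mean of M values. Wnt5a (chr14:28504750-28527448, plus strand) shares 4.58% of its exon bases with the antisense Gm2670, which was at 0.311 to 0.693 CPM. In Wnt4, 4.33% of the words recurred in other genes, none of them a Wnt.

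Library totals ran from 17157864 to 25344399 estimated counts, and 3 counts were worth 0.117 to 0.173 CPM. The markers of keratinocytes were high in every library: the 6 basal markers, among them Krt5 and Krt14, summed to 25769 to 33215 CPM, and the 8 differentiation markers to 19141 to 35983 CPM. Collagens of fibroblasts were low, with 3.81 to 12.6 CPM of Col1a1, and the endothelial markers summed to 2.02 to 5.79 CPM. The 7 fibroblast markers together summed to 487 to 1011 CPM, since Postn was at 408 to 874 and Dcn at 20.8 to 123 CPM. Gpr161 itself had 25.9 to 33.6 CPM in the knockout and 30.2 to 32.2 CPM in the control, with overlapping groups, so its whole-gene count does not check the labels. Gli1, a target of Hedgehog signalling, was at 66.7 to 74.5 CPM in the knockout and at 8.25 to 9.96 in the control. The library with transcripts of the Y chromosome was DE685 in the knockout and DE684 in the control.

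Wnt4 was the leading ligand of the control cells. Levels of different genes are compared per kilobase of all their annotated exons merged. On that scale Wnt4 (chr4:137277489-137299726, plus strand), a ligand best known from kidney and reproductive tract development, had 50.5, 44.4 and 50.6 CPM per kilobase in the 3 control libraries. It held 40.7% ± 2.52 (SD, n = 3) of the summed level of the 16 Wnt ligands in the table. Its mean level over the 6 libraries stood at percentile 93.5 of the genes tested. Wnt10a (chr1:74791516-74804179, plus strand), whose loss in people causes ectodermal dysplasia, followed with 24.7 ± 5.65 CPM per kilobase in the control. Wnt3 (chr11:103774150-103817957, plus strand), a ligand of the follicle and of the early embryonic axis, had 16.6, 15.8 and 13.7. Wnt7b, known from follicle, lung and bone growth, had 13.5, 11.3 and 10.6. The ranges of these 4 ligands did not overlap between neighbours in the control order, although the lowest Wnt3 value and the highest Wnt7b value almost met.

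A second tier lay well below. Wnt3a (chr11:59248033-59290752, minus strand), the ligand used most in culture to activate beta-catenin, had 4.53 ± 1.20 CPM per kilobase in the control. Wnt10b (chr15:98770712-98778150, minus strand), an early signal of the hair placode, had 3.53 ± 2.24, Wnt6 (chr1:74771892-74785322, plus strand) 2.87 ± 1.15 and Wnt16 (chr6:22288227-22298522, plus strand) 2.52 ± 0.678. The ranges of neighbours overlapped from Wnt3a down to Wnt16, so the order among these 4 ligands is not resolved. Wnt5a, the ligand of planar polarity and of signalling without beta-catenin, had 0.988 ± 0.174, and Wnt7a (chr6:91363981-91411363, minus strand), known for dorsal limb patterning, 0.417 ± 0.087. Those lowest ligands were separate from each other and from Wnt16 in the control.

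In the knockout libraries, Wnt7b stood beside Wnt4 at the top. Wnt7b had 28.6, 33.5 and 33.6 CPM per kilobase there, and Wnt4 had 38.6, 36.6 and 42.3. Wnt4 was the higher of the pair in all 3 libraries, and the ratio of Wnt7b to Wnt4 was 0.817 ± 0.089 in the knockout against 0.243 ± 0.030 in the control. Wnt10a moved to the third place with 24.6 ± 1.51 and Wnt3 to the fourth with 12.9 ± 1.07 CPM per kilobase. The place at the top depended on the length used: per kilobase of the longest transcript, which is 3400 bases for Wnt7b against 4898 bases of merged exons, the ratio was 1.07, 1.32 and 1.15, and Wnt7b was above Wnt4 in all 3 knockout libraries. In the control the ratio by that length was 0.350 ± 0.043, so Wnt4 led there by either length. Wnt7b and Wnt3 changed places in the control mean by that length, at 16.9 and 15.4 CPM per kilobase. Which Wnt7b transcript these cells use was not analysed here.

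**Figure D1:**
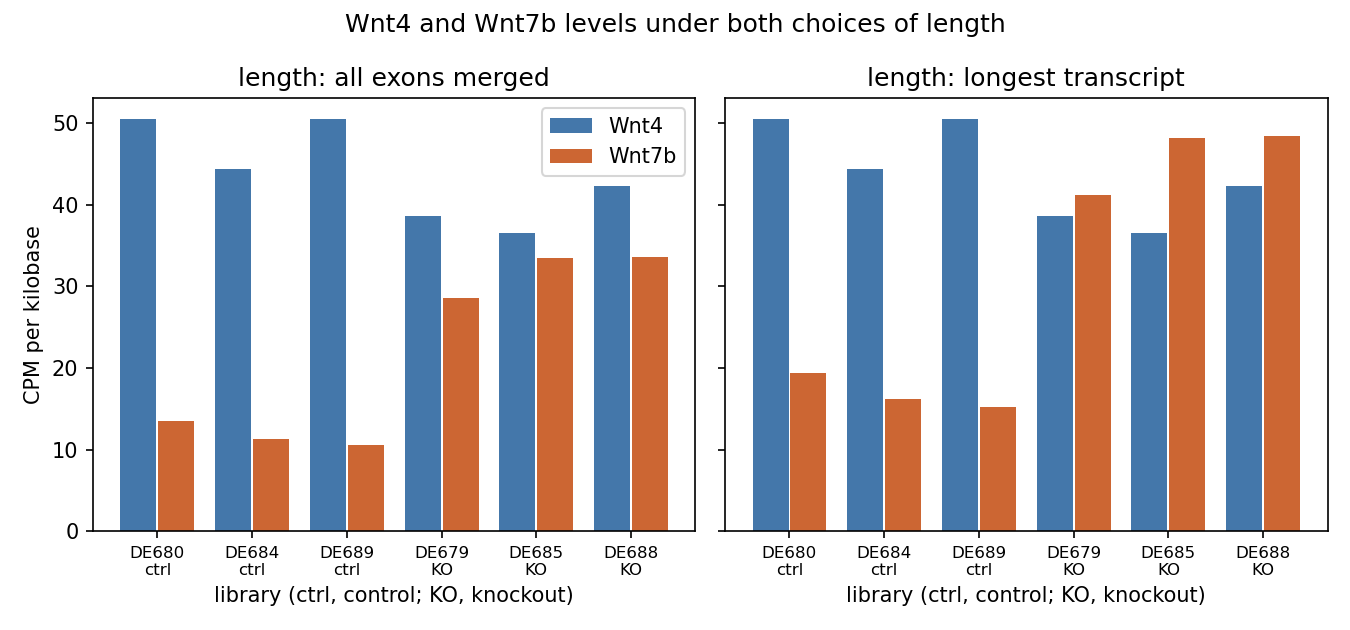
Levels of Wnt4 and Wnt7b in CPM per kilobase (y axis) in each of the 6 libraries (x axis), with the length taken from all exons merged (left) or from the longest transcript (right). Each bar is 1 library; the Wnt7b bars of the 3 knockout libraries come close to those of Wnt4 on the left and exceed them on the right.

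The make-up of the ligand pool differed accordingly. Wnt7b held 10.2%, 10.3% and 9.04% of the summed level per kilobase in the control libraries and 23.0% to 26.3% in the knockout libraries. The share of Wnt4 was 30.4% ± 1.44 in the knockout against 40.7% ± 2.52 in the control. A share falls when another member grows, so Wnt4 was also set against the sum without Wnt7b: there it held 40.4% ± 1.43 in the knockout and 45.1% ± 2.51 in the control, and the groups still did not overlap. The 9 listed ligands other than Wnt7b summed to 92.8 ± 3.34 CPM per kilobase in the knockout and 103 ± 10.6 in the control, with overlapping groups. All 10 together came to 125 ± 4.95 and 115 ± 11.8, again overlapping. These shares and sums rest on merged exons and were not computed for the longest transcript. By that length the mean Wnt7b level was 45.9 instead of 31.9 CPM per kilobase in the knockout, and 16.9 instead of 11.8 in the control.

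**Figure D2:**
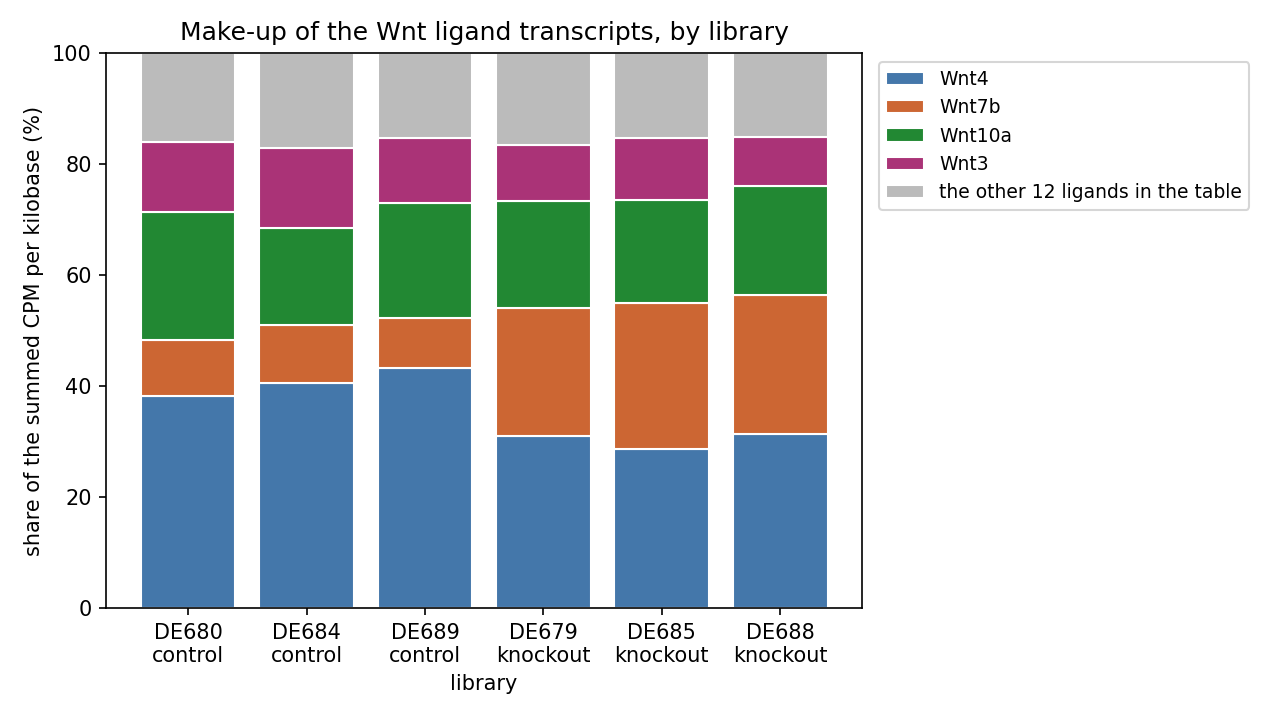
Share of each ligand in the summed CPM per kilobase of merged exons, over the 16 Wnt ligands in the table (y axis, percent), for each library (x axis). Each column is 1 library; the Wnt7b segment spans 9.04% to 10.3% in the control and 23.0% to 26.3% in the knockout.

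Wnt7b differed most between the genotypes. Its CPM was 140, 164 and 165 in the knockout libraries and 65.9, 55.1 and 51.8 in the control libraries. Every knockout library was far above every control library. The means were 156 ± 13.9 and 57.6 ± 7.34 (SD over 3 libraries each), a log2 fold change of 1.44 (SE 0.11), or 2.71-fold. The libraries with Y-linked transcripts, DE685 and DE684, showed the same contrast at 164 and 55.1 CPM, as did the 4 others. Leaving out any library, changing the scaling, the filter or the tool, or adding sex as a covariate gave values from 1.37 to 1.54.

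Wnt4, the leading ligand, was lower in each knockout library. Its CPM was 162, 153 and 177 there, and 212, 186 and 212 in the control libraries. The groups did not overlap, although the highest knockout library (177) and the lowest control library (186) were close. The fitted difference was −0.31 (SE 0.08) on the log2 scale, or 1.24-fold lower. Wnt6 was the third ligand whose groups did not overlap. Its CPM was 9.20, 9.99 and 12.8 in the knockout and 7.72, 3.38 and 7.77 in the control. DE684 was far below the other controls, and the fitted log2 difference of 0.76 (SE 0.31) became 0.46 without that library.

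**Figure D3:**
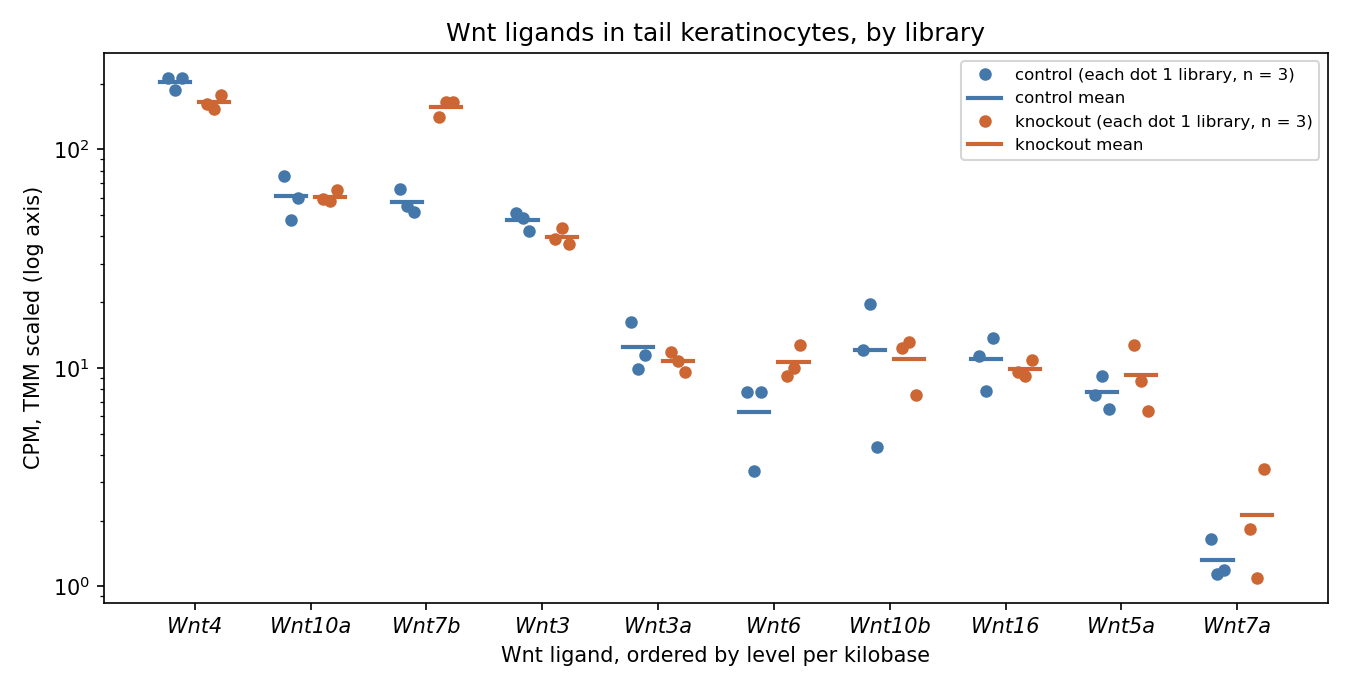
CPM of each listed Wnt ligand (y axis, log scale) in control and knockout libraries, with the ligands ordered along the x axis by level per kilobase. Each dot is 1 library and each bar the mean of 3; only Wnt7b, Wnt4 and Wnt6 have groups that do not overlap.

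In the edgeR fit across 15422 genes, 1.60% passed an adjusted p of 0.05 (Benjamini-Hochberg), 1.24% as higher and 0.357% as lower in the knockout, and 25.6% had groups that did not overlap. An unadjusted p under 0.05 was found for 19.0% of these genes. DESeq2, another tool for the same comparison, passed 559 genes as higher and 305 as lower among 19597, of which 5324 got no adjusted p. All 10 listed ligands passed the filter on low counts. Of these, 1 (Wnt7b) had an adjusted p under 0.05 and 3 had groups that did not overlap. Since the list was made with this comparison in view, nothing is read from these counts. The log2 fold change was above 0 in 4 ligands and below 0 in 6, with a median of −0.07, beside −0.0036 for all genes tested.

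The other 7 listed ligands overlapped between the groups. Wnt10a had nearly the same mean in both genotypes, 60.7 ± 3.72 CPM in the knockout and 60.9 ± 13.95 in the control, a log2 difference of −0.0018 (SE 0.15). Its control libraries ranged from 47.3 CPM in DE684 to 75.2 in DE680, a wider range than the 58.1 to 65.0 CPM of the knockout. Wnt6 and Wnt10a are neighbours, 6.19 kb apart on the same strand of chromosome 1. The ratio of Wnt10a to Wnt6 per kilobase was 4.52 to 5.71 in the knockout and 6.86 to 12.4 in the control, so the pair did not keep 1 ratio.

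Wnt3 had 37.0 to 43.4 CPM in the knockout and 42.2 to 51.1 in the control, and only the value of DE685 reached into the control range. Its fitted difference was −0.25 (SE 0.10). Its relative Wnt3a had 9.57 to 11.8 CPM and 9.87 to 16.2 CPM, a difference of −0.22 (SE 0.19). Wnt3 stayed above Wnt3a by 2.82 to 4.43 times per kilobase in the 6 libraries.

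Wnt10b varied more among the controls than any other listed ligand (coefficient of variation 63.5%), with 12.1, 19.6 and 4.36 CPM. The knockout libraries, at 12.4, 13.1 and 7.51 CPM, lay inside that range. Its difference of −0.13 (SE 0.47) took either sign when libraries were left out, from −0.53 without DE689 to 0.42 without DE684, so no direction can be given. Wnt5a was highest in a knockout library, DE679 at 12.8 CPM, while DE685 and DE688 had 8.72 and 6.38 and the controls 6.47 to 9.17. Without DE679 its difference went from 0.27 (SE 0.26) to −0.03.

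Wnt16, a ligand known from cortical bone and also made in skin, had 9.18 to 10.9 CPM in the knockout and 7.85 to 13.7 CPM in the control, a difference of −0.15 (SE 0.20). Wnt7a was the scarcest of the 10 and rested on 19 to 89 counts a library. Its CPM was 1.82, 1.10 and 3.46 in the knockout and 1.14 to 1.64 in the control. The difference of 0.70 (SE 0.42) was carried by DE688, since without it the value was 0.15. Wnt7b thus had 30.8 to 96.7 times the level of Wnt7a per kilobase in the knockout and 26.0 to 31.3 times in the control.

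**Figure D4:**
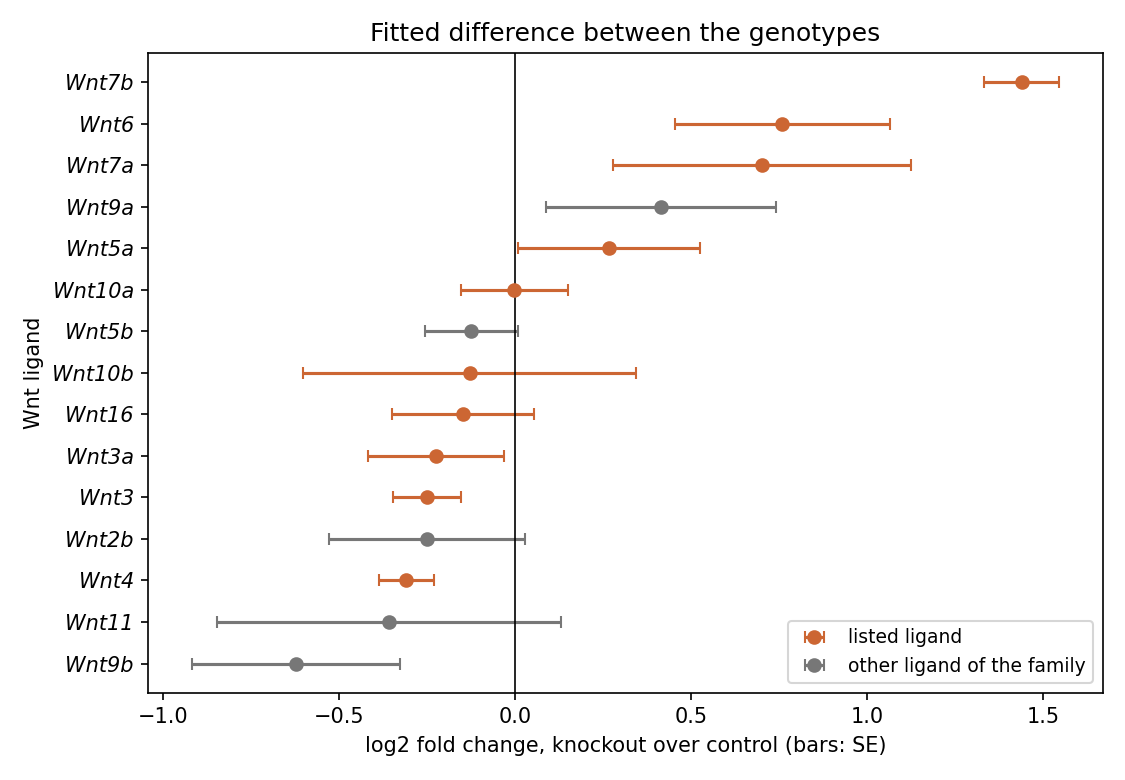
Fitted log2 fold change of knockout over control (x axis, bars are the SE of the edgeR fit over 6 libraries) for each Wnt ligand that passed the filter (y axis), with the listed ligands in orange and the other members of the family in grey. Wnt7b lies at 1.44 and no other ligand is above 0.76. Wnt4 lies at −0.31 with a short bar, and Wnt9b is lowest at −0.62.

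The 9 members of the family that are not among the listed ligands were scarce. Wnt1, Wnt2 and Wnt8b had no row, and Wnt8a, with 0 to 8 counts, did not pass the filter. Of the 5 tested, 0 passed an adjusted p of 0.05 in edgeR, DESeq2 or limma, and 0 had an unadjusted p under 0.05 in edgeR. Wnt9b had the lowest log2 fold change of the tested ligands, −0.62 (SE 0.30), on 11 to 24 counts a library. Its CPM was 0.551 to 0.661 in the knockout and 0.887 to 1.05 in the control. The groups of Wnt9b and Wnt2b did not overlap, beside 25.6% of all genes tested. Wnt5b, a relative of Wnt5a, was the most abundant at 7.25 to 7.70 CPM in the knockout and 7.36 to 9.08 in the control, and its mean of 2.97 CPM per kilobase over the 6 libraries was above the 2.39 of Wnt16. Wnt11, a ligand of cell movement, had 0.693 to 3.46 CPM and Wnt2b 0.763 to 1.05 CPM over all libraries. The 10 listed ligands held 96.0% to 97.1% of the summed level per kilobase.

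Genes near Wnt7b were looked at after its values were seen. Within 500 kb on either side, 15 other genes were tested, with a median log2 fold change of −0.05. Their values ran from −0.41 to 0.85, all below the 1.44 of Wnt7b. Fbln1, a gene of a matrix glycoprotein 249 kb away, was the only one past the threshold (0.75, SE 0.13, edgeR adjusted p 0.0384). The antisense AU022754 was at 2.02 to 2.71 CPM in the knockout and 1.49 to 1.60 in the control, a difference of 0.60 (SE 0.23, edgeR adjusted p 0.225). Atxn10, the nearest tested gene at lower coordinates, had 0.07. On the other side the nearest was Gm49539, 63.6 kb away, with 0.85 (SE 0.37, edgeR adjusted p 0.268). Its groups did not overlap, but its CPM was low, from 0.351 to 1.13 over the libraries. Farther on that side, Lncppara at 71.1 kb had −0.18 and Ppara at 153 kb −0.09.

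The genes with the most similar pattern over the 6 libraries were taken by Pearson correlation of log2 CPM among 13678 genes. For Wnt7b they were Gm32219 (r = 0.998), Vwa2 (r = 0.997) and Pthlh (r = 0.995), a secreted hormone of the epidermis. Each was higher in the knockout, Pthlh at 28.3 ± 3.06 against 7.68 ± 0.999 CPM. For Wnt4 they were Timm9 (r = 0.995), Sbsn (r = 0.989), a secreted protein of suprabasal keratinocytes, and Bspry (r = 0.987). The points share the same 6 libraries and the genotype difference, and such values were common: 520 genes had r above 0.9 with Wnt7b and 299 with Wnt4.

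Some markers of cells and compartments also differed between the groups. Summed markers of follicle stem cells were 2122 to 2521 CPM in the knockout and 1640 to 1915 CPM in the control. Of the 8, 1 (Nfatc1) passed the threshold in edgeR, beside 1.60% of all genes tested, and 5 passed in DESeq2. In edgeR 5 of the 8 had an unadjusted p under 0.05, beside 19.0% of all genes tested. Most of that sum was Krt15, at 1689 to 2018 CPM in the knockout and 1324 to 1600 in the control. Cd34 and Tbx1 had log2 fold changes of −0.29 and −0.03, and the other markers of that list were above 0. The groups of Cd34, Lgr5, Tbx1 and Fgf18 overlapped, and those of Krt15, Lhx2, Sox9 and Nfatc1 did not. Over all genes tested, 25.6% had groups that did not overlap. Melanocyte markers summed to 79.2 to 117 against 54.0 to 78.9 CPM, with 0 of 6 past the edgeR threshold, 3 at an unadjusted p under 0.05, 1 in DESeq2 and 0 in limma. Over all genes tested in edgeR, 19.0% had an unadjusted p under 0.05. The fibroblast list summed to 891 to 1011 against 487 to 590 CPM, which came from Dcn and Postn, the 2 of 6 tested that passed; Col1a1, Col1a2 and Col3a1 had log2 fold changes from −0.54 to −0.38, and Lum was at most 0.272 CPM. The 7 immune markers summed to 41.8 to 101 and 20.9 to 81.2 CPM, which overlap. The 8 markers of differentiated keratinocytes all had a log2 fold change below 0, with a median of −0.29, beside −0.31 for Wnt4. Their sum overlapped between the groups, at 19141 to 26505 CPM in the knockout and 21734 to 35983 in the control. Of the 8 markers, Krtdap, Lor, Sbsn and Calm4 had groups that did not overlap, beside 25.6% of all genes tested. In edgeR 0 of the 8 passed and 4 had an unadjusted p under 0.05, while 2 passed in DESeq2 (Calm4 and Krtdap), 1 in limma-voom (Calm4) and 0 in limma on the authors' values. The part of these cells in the Wnt7b and Wnt4 differences was not tested, and in bulk RNA, more cells of a type and more RNA per cell cannot be told apart.

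The rest of the Wnt pathway was examined through lists of 87 genes in all, of which 73 were tested. Of these, 4 were higher and 1 was lower at an adjusted p under 0.05 in edgeR, which is 6.85% of them beside 1.60% of all genes, and the median difference was 0.030. The lists were drawn up with earlier results of these libraries known. Among the 9 genes of ligand processing and secretion, 0 passed in edgeR or limma, 3 had an unadjusted p under 0.05 in edgeR, and 1, Tmed5, passed in DESeq2. The share of all genes with an unadjusted p under 0.05 in edgeR was 19.0%. The ligand carrier Wls had 156 to 180 CPM in the knockout and 142 to 160 in the control, a difference of 0.15 (SE 0.07, edgeR adjusted p 0.298). Tmed2 and Vps35, which serve transport through the early secretory pathway and recycling, had −0.23 and −0.08.

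Of 15 receptors tested, 3 were higher and 0 lower in edgeR, with a list median of 0.10. That is 20% of them, beside 1.60% of all genes tested. In edgeR 8 had an unadjusted p under 0.05, beside 19.0% of all genes tested. DESeq2 passed 5 (Fzd1, Fzd2, Fzd7, Ptk7 and Ror1) and limma 3. Fzd2 had a difference of 0.55 (SE 0.11, edgeR adjusted p 0.0606) and also passed in edgeR with sex as a covariate. Fzd7, a Frizzled receptor, had 141, 152 and 164 CPM in the knockout libraries against 111, 106 and 111 in the controls. That was a rise of 0.48 (SE 0.07, edgeR adjusted p 0.0184). Fzd1 rose by 0.59 (SE 0.11, edgeR adjusted p 0.0412) and Ptk7, a coreceptor of planar polarity, by 0.35 (SE 0.05, edgeR adjusted p 0.0225). With 1 library fewer these calls mostly fell short: Ptk7 in all 6 such fits (edgeR adjusted p 0.0533 to 0.104), Fzd1 in all but the fit without DE685 (0.0866 to 0.156) and Fzd7 in all but the fit without DE679 (0.0509 to 0.0669). The coreceptor Lrp5 had a difference of 0.10 (SE 0.06) and the receptor Ryk −0.14 (SE 0.06), both short of the threshold.

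Of 12 genes tested in the list of secreted and surface inhibitors and their relatives, 1 was higher and 1 lower, with a list median of 0.08. That is 16.7% of them, beside 1.60% of all genes tested. In edgeR 4 had an unadjusted p under 0.05, beside 19.0% of all genes tested, and 3 passed in DESeq2. Apcdd1, a membrane inhibitor of Wnt signals and itself a known beta-catenin target, had 110, 144 and 162 CPM in the knockout libraries and 51.3, 57.7 and 69.0 in the controls. It rose by 1.22 (SE 0.16, edgeR adjusted p 0.0147). The call was lost without DE680 (0.0638), without DE684 (0.0507) and without DE685 (0.0509). Dkkl1, a relative of the Dickkopf inhibitors, fell by 0.47 (SE 0.08, edgeR adjusted p 0.0394), a call lost in all 6 fits with 1 library fewer (0.0684 to 0.168). Sfrp1, Sostdc1 and Kremen1, the most abundant inhibitors of the list, had differences of 0.01, 0.48 and 0.07, none past the threshold in edgeR; Sostdc1 passed in DESeq2.

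Downstream, Axin2, the feedback inhibitor that is the most used readout of beta-catenin activity, had 51.8, 51.0 and 52.1 CPM in the knockout libraries and 51.5, 52.6 and 52.3 in the controls. These values overlapped, and the difference was −0.01 (SE 0.06, edgeR adjusted p 0.922). Of the 12 beta-catenin targets tested, 1 (Apcdd1) passed in edgeR and in limma, 5 had an unadjusted p under 0.05 in edgeR, and 3 passed in DESeq2 (Apcdd1, Lef1 and Lgr5). The list median was 0.25. Ccnd1, a cyclin of the G1 phase, had 0.35 (SE 0.13, edgeR adjusted p 0.198). Of the 20 genes of the beta-catenin machinery, 0 passed in edgeR or limma, 3 had an unadjusted p under 0.05 in edgeR, and 1, Lef1, passed in DESeq2. Beside the unadjusted counts of these lists stands the 19.0% of all genes tested in edgeR. Ctnnb1, beta-catenin itself, had 757 ± 25.8 against 741 ± 39.8 CPM. Csnk1a1 and Bcl9l, also among the most abundant of the machinery list, had differences of −0.12 and 0.01. Lef1, a partner of beta-catenin on DNA named after its values were seen, had non-overlapping groups at 5.72 to 11.7 and 2.26 to 5.05 CPM, and a difference of 1.39 (SE 0.35, edgeR adjusted p 0.105). Of the 7 R-spondin genes and receptors, 0 passed in edgeR, 2 had an unadjusted p under 0.05, 2 passed in DESeq2 (Lgr5 and Lgr6) and 1 in limma (Lgr6). Lgr4 and Rnf43, among the most abundant of that list, had differences of 0.16 and 0.04. Lgr6, a receptor of R-spondins that marks stem cells of the upper follicle, had 65.9 ± 7.91 against 23.5 ± 10.1 CPM, a difference of 1.49 (SE 0.29, edgeR adjusted p 0.0556). Without DE689, its lowest library, Lgr6 passed in edgeR. It did not pass in any other fit with 1 library left out. With all libraries and sex as a covariate, Lgr6 passed in edgeR.

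**Figure D5:**
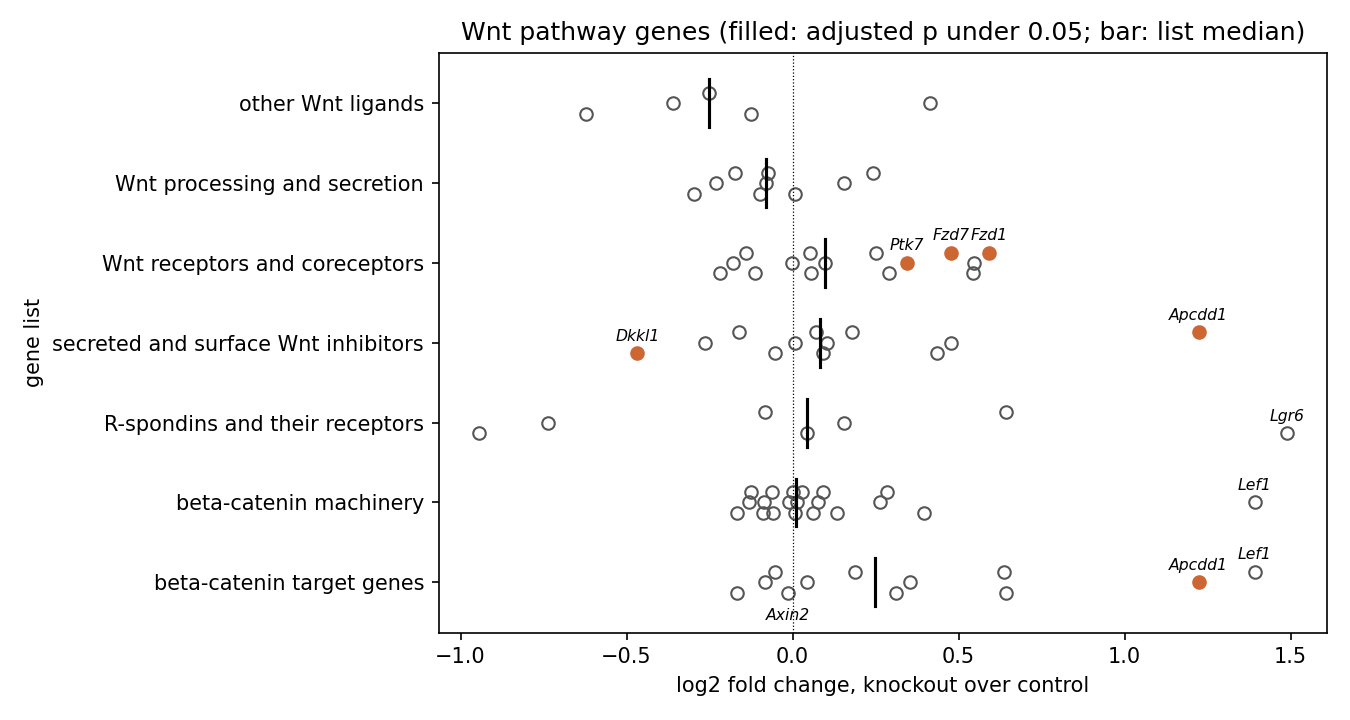
Log2 fold change of knockout over control (x axis) for each tested gene of the 7 Wnt pathway lists (y axis). Each circle is 1 gene, filled circles have an adjusted p under 0.05 in edgeR, and black bars are list medians; Axin2 lies at −0.01 and Apcdd1, shown in both lists that hold it, at 1.22.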

How the data were processed

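Per gene, the authors deposited estimated counts and a normalized signal. The deposited signal was tested to be the estimated count multiplied by a library constant, with 0.001 added. The submitters' processing notes name build mm10 and the tools bcl2fastq 2.20, cutadapt 1.18, STAR 2.7.0f and Partek; the counter, strand use and annotation are not given in the sources used here. Between 53.0% and 57.7% of the estimated counts of a library were whole.

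Estimated counts were rounded. The main fit used edgeR 4.0.16 (filterByExpr, TMM factors, glmQLFit, glmQLFTest, genotype as the only term, all 6 libraries), with p-values adjusted by the Benjamini-Hochberg method over 15422 genes. The labels title the samples separately but do not state that each is a different animal, so p-values measure the spread between these samples. An exact two-sided permutation test of 3 against 3 cannot go below 0.1, so no test of single values is given. The labels mention no molecular identifiers, so the floor of 3 counts covers counting error only. Levels per kilobase used merged exons of GENCODE M21 (GRCm38); its gene starts equal those of the table for all listed ligands, and table ends lie 1 base further.

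Named genes were all listed ligands, genes of the pathway lists with an adjusted p under 0.05, the 3 of highest mean CPM in each list, Gpr161, Gli1, Ptch1, and the 3 genes most correlated with the ligand of highest level and with that of the largest difference (mean of at least 1 CPM). Cell markers, genes that overlap or lie near a ligand, Wnt9b, and some genes that passed only in DESeq2 or limma were named outside this rule. The members and lists were chosen with earlier results of these data known. Marker lists covered basal, differentiated, follicle matrix, follicle stem cell, fibroblast, melanocyte, immune, Merkel and endothelial genes. Alternatives were DESeq2 1.42.0, limma-voom, limma 3.58.1 on the authors' normalized values (log2, pseudocount 1), upper-quartile and relative-log-expression factors, no filter, at least 1 CPM, sex read from Xist and Y-linked genes, each library left out, and the longest transcript as length. The fit was tested on simulated data, where it recovered 63.3% of 2-fold and 88.3% of 4-fold changes. Of its calls there, 8.81% were false.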

Additional observations from a re-analysis of the deposited data

How the results depend on the processing

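Genes past the threshold numbered 192 higher and 55 lower; DESeq2 gave 559 and 305 (64.7% higher against 77.7%) and a sex covariate 299 and 110. Leaving out 1 library gave 65 to 109 higher and 3 to 19 lower, in fits with fewer samples. Of the listed ligands 1 was past the threshold, 2 with DESeq2 or the sex covariate, and 1 with any library left out; the ligands were selected on these values, so the counts are a description and support nothing. Pathway genes past the threshold were 4 higher and 1 lower, against 10 and 2 with DESeq2, and 0 to 2 higher and 0 lower with 1 library left out. They were 6 and 1 with the sex covariate, and 5 and 1 with limma-voom or limma on the authors' values. The mean log2 ratio of Wnt4 to Wnt7b per kilobase went from 2.05 to 1.52 in the control and reversed from 0.30 to −0.23 in the knockout with the longest transcript as length; shorter Wnt7b models produce that by construction. The cause of the other shifts was not tested. The sign of the log2 fold change varied among the alternatives for Wnt10a, Wnt10b, Wnt16, Wnt3a and Wnt5a. Gpr161 stayed short of the threshold and Gli1 and Ptch1 past it throughout. No paired analysis was possible because the columns carry no replicate numbers from the labels. Wnt7a rested on the fewest counts of the listed ligands, 19 to 89 a library.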
